A study of Homo sapiens with 6 samples.

Results

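The MAX network is a set of transcription factors that share dimerization through MAX or MLX, and 10 of its genes were followed here: MYC, MAX, MXD1, MXD3, MXD4, MXI1, MNT, MGA, MLX and MLXIP. Every transcript that the authors' deposited table pairs with one of these symbols was taken, and its abundance was summed per Ensembl gene ID. This gave 10 genes with 96 transcripts, out of 63677 genes with 215170 transcripts in all. The series measured total RNA of KMS27, an established human multiple myeloma cell line, in 3 libraries of cells labelled wild type and 3 libraries of cells that overexpress HA-TAZ. The HA peptide serves as a tag, and TAZ, the product of WWTR1, is a transcriptional coactivator of the Hippo pathway. Libraries were made in triplicate from ribosome-depleted RNA, and no label says that they came from separate cultures, so the p-values below measure only the spread between these libraries, which may be technical. HA is also part of the titles given to wild type samples, and the labels do not say whether these cells received a construct.

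MYC binds DNA together with MAX at E-boxes and activates genes for ribosome production, metabolism and cell growth. The MXD proteins, MXI1 and MNT compete with MYC for MAX and recruit SIN3 and histone deacetylases to the same sites, and MGA is the scaffold of a Polycomb complex that also holds MAX. MLX is a MAX-like protein that pairs with MLXIP (MondoA), a sensor of glucose-derived metabolites, and with some MXD proteins and MNT. In multiple myeloma, MYC is known for rearrangements that place it beside strong enhancers of plasma cells.

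The E-box of the network, CACGTG, was searched in RefSeq promoter windows of build GRCh38.p14, each reaching from 250 bases before to 50 bases after a gene start. The motif is a palindrome, so both strands were searched at once. Windows were held for 9 of the 10 genes, some with several, and 3 of their 14 windows had a CACGTG, each in a different gene. Of all 35116 windows of this length, 7.26% had one. The match is a description of the letters, not evidence of binding. The stretches around it are shown because they belong to MLX, the 1 gene of the 10 that passed the test below, and to 2 antagonists of MYC. The E-box is in capitals, and each stretch is read 5′ to 3′ on the strand of its gene.
MXD4, chr4:2262315-2262359, minus strand: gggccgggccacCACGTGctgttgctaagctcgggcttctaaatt
MNT, chr17:2401221-2401280, minus strand: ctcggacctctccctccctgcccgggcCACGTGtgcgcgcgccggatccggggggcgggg
MLX, chr17:42567023-42567082, plus strand: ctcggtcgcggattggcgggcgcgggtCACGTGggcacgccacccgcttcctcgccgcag
The motif begins 238 bases before the gene start in MXD4, 193 in MNT and 50 in MLX.

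MXI1 transcripts begin their coding sequence in 3 different ways, and these starts are shown because the shares of MXI1 transcripts are compared below. The first 48 coding bases are given, with the start codon in capitals, from the transcripts of the same ID in GENCODE release 29.
ENST00000239007 start: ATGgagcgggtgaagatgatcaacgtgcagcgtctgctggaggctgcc
ENST00000332674 start: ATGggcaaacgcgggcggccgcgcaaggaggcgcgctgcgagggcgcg
ENST00000361248 start: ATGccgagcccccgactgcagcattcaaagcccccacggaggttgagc
MAX transcripts differ by an insertion of 27 bases, shown in capitals at positions 38 to 64 of the longer coding sequence, which is the known difference between the long and the short MAX protein.
MAX with the insertion: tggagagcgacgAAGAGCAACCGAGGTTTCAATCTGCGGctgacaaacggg
MAX without the insertion: tggagagcgacgctgacaaacggg

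The deposited values are TPM, an abundance per transcript length relative to all transcripts of a library, so levels can be compared between genes and each library sums to 1000000. The depth of single libraries is unknown. The authors' deposited table gives a mean of natural log estimated counts per transcript. Its exponent, a geometric mean derived here, summed over a gene's transcripts to 41467 for MYC and to 503 for MXD3, the lowest of the 10. WWTR1 checked the labels, at 293 to 306 TPM with HA-TAZ and 1.69 to 2.69 TPM in the controls. The columns of the control libraries carry a name found in no label and were assigned by elimination, so they are called control a, b and c. All 8 plasma cell markers were at 1 TPM or more in every library, with summed levels of 550 to 599 TPM with HA-TAZ and 653 to 743 TPM in the controls. These sums are of TPM as deposited, on which 43.6% of all genes tested were lower in every HA-TAZ library. SLAMF7 went the other way, at 6.55 to 7.78 TPM with HA-TAZ and 3.50 to 4.51 TPM in the controls. SDC1 overlapped, and the rest of these markers were lower in every HA-TAZ library. The 4 B cell markers summed to at most 0.912 TPM, the 3 T cell markers to at most 0.559 TPM the 4 myeloid markers to at most 2.25 TPM and the 5 stromal and epithelial markers to at most 3.07 TPM. No marker of these lists was at 0 in all libraries, and the T cell sums did not overlap, at 0.0476 to 0.167 TPM with HA-TAZ and 0.386 to 0.559 TPM in controls. Most of that gap was in CD3E, at 0.0476 to 0.150 TPM with HA-TAZ and 0.311 to 0.496 TPM in controls. CD3D and CD2 overlapped, and each T cell marker was under 1 TPM in every library. Control libraries also had a larger share of TPM in transcripts typed retained intron, at 4.92 to 5.77% against 3.92 to 4.37%. The part of these shifts in the results below was not tested.

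Because TPM is a share of the library, 2 scales are given. Scaled TPM is TPM divided by a median-of-ratios factor, and fold changes are HA-TAZ over control on the log2(scaled TPM + 1) scale unless TPM as deposited is named. Over the 22651 genes with a mean of at least 1 TPM, the median log2 fold change was −0.03 with scaled TPM and −0.27 with TPM as deposited, so the scale decides the sign of small differences. A gene is called where limma's Benjamini-Hochberg adjusted p over all these genes is under 0.05.

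MYC was by far the most abundant of the 10 genes and stood above 98.9% of the genes tested. MLX was the only one of the 10 that passed the test, rising in HA-TAZ cells relative to the median gene, while its TPM as deposited overlapped between the groups. MAX, the 5 antagonists MXD1, MXD3, MXD4, MXI1 and MNT, and MGA and MLXIP did not pass. Thus 1 of 10 genes was called higher and 0 lower, where 7.29% of all genes tested were called, 4.67% higher and 2.63% lower. At an unadjusted p under 0.05 (limma) there were 2, MYC and MLX, where 30.7% of all genes were. The median log2 fold change of the 10 was 0.06 with scaled TPM and −0.23 with TPM as deposited. All 10 genes passed the filter on low values.

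**Figure D1:**
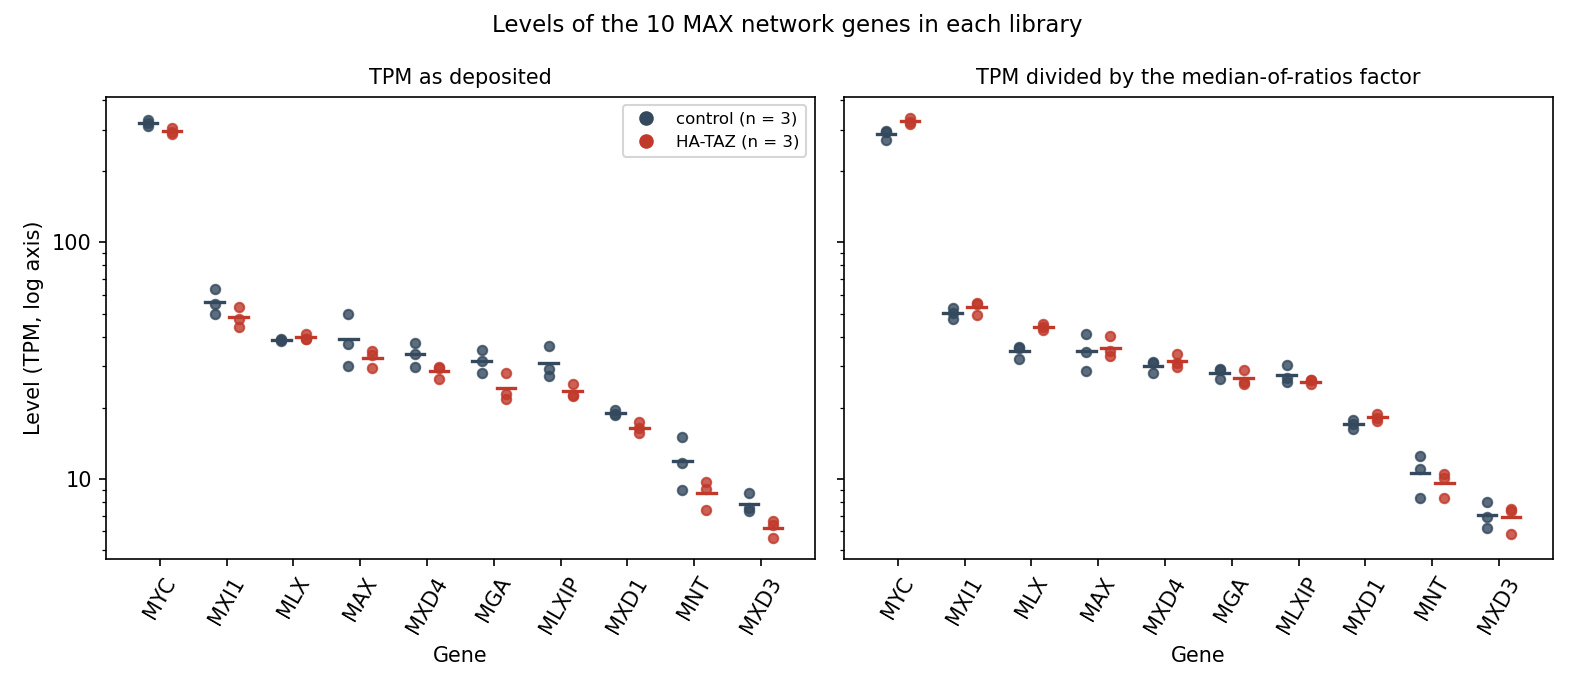
Level of each gene in each library, as deposited TPM (left) and as scaled TPM (right), on log axes. Points are libraries and horizontal lines are group means (n = 3). MYC lies between 287 and 328 TPM on the left, with HA-TAZ below control, and on the right MYC and MLX are the only genes whose groups separate, with HA-TAZ above control.

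MYC (ENSG00000136997, chromosome 8) was at 292, 305 and 287 TPM with HA-TAZ 1, 2 and 3 and at 328, 319 and 312 TPM in control a, b and c. As deposited, every HA-TAZ library was below every control, with means of 295 ± 9.52 and 320 ± 8.07 TPM (SD, n = 3 each). Scaling turned this order. Scaled MYC was at 338, 316 and 322 TPM with HA-TAZ and 271, 292 and 295 TPM in the controls, again without overlap. The log2 fold change was 0.18 (SE 0.05), with a 95% interval of 0.05 to 0.31 (limma, adjusted p = 0.0859), against −0.12 with TPM as deposited. Neither passed the test. MYC held 56.4 ± 0.859% of the summed TPM of the 10 genes in HA-TAZ and 54.4 ± 2.28% in control libraries (SD, n = 3 each), with overlap, and this share does not depend on the scale.

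MAX (ENSG00000125952, chromosome 14), the shared partner, was at 34.8, 33.5 and 29.4 TPM with HA-TAZ and at 49.8, 37.4 and 30.2 TPM in the controls. The control libraries spread more widely than the groups differ, with control a the highest. The log2 fold change was 0.06 with a 95% interval of −0.30 to 0.42 (limma, adjusted p = 0.803). It was negative with TPM as deposited, with scaling on protein-coding genes, and without HA-TAZ 1 or control c.

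The antagonists of MYC showed no called difference. MXI1 (ENSG00000119950, chromosome 10), the most abundant of them, was at 47.5, 53.6 and 44.0 TPM with HA-TAZ and 63.6, 54.9 and 50.05 TPM in the controls. MXD4 (ENSG00000123933, chromosome 4) was at 29.3, 29.8 and 26.4 against 37.4, 33.9 and 29.7 TPM. MXD1 (ENSG00000059728, chromosome 2) was at 16.4, 17.5 and 15.7 against 19.7, 18.6 and 18.8 TPM. The groups overlapped for MXI1 and MXD4, and for MXD1 every HA-TAZ library was below every control as deposited but not after scaling. MXD3 (ENSG00000213347, chromosome 5), known for expression in dividing cells, was at 6.37, 5.64 and 6.62 against 7.53, 8.69 and 7.33 TPM. MNT (ENSG00000070444, chromosome 17), a widely expressed antagonist, was at 9.10, 9.73 and 7.42 against 15.1, 9.02 and 11.7 TPM. MXD3 separated as deposited only, and MNT overlapped on both scales. With scaled TPM the 5 log2 fold changes ran from −0.11 for MNT to 0.09 for MXD1 and MXI1, with limma adjusted p-values from 0.324 for MXD1 to 0.886 for MXD3. The widest of their 95% intervals were those of MNT, −0.51 to 0.28, and MXD3, −0.34 to 0.28, the 2 least abundant genes.

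MGA (ENSG00000174197, chromosome 15) was at 21.8, 27.9 and 22.9 TPM with HA-TAZ and 35.2, 31.4 and 27.9 TPM in the controls, with HA-TAZ 2 at the level of control c. Its log2 fold change was −0.08 with a 95% interval of −0.26 to 0.10 (limma, adjusted p = 0.5001).

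MLX (ENSG00000108788, chromosome 17) was at 39.0, 41.1 and 38.9 TPM with HA-TAZ and 38.8, 39.2 and 38.2 TPM in the controls, which overlap. After scaling, it was at 45.1, 42.5 and 43.8 TPM with HA-TAZ and 32.1, 35.9 and 36.1 TPM in the controls, and every HA-TAZ library was higher. The log2 fold change was 0.33 (SE 0.06), with a 95% interval of 0.18 to 0.48 (limma, adjusted p = 0.0397). With TPM as deposited it was 0.03 (limma, adjusted p = 0.642), and leaving out any 1 of the 6 libraries ended the call, with limma adjusted p-values of 0.0670 to 0.136. With scaling on protein-coding genes the MLX value was 0.25 (limma, adjusted p = 0.0512). None of the 10 genes was called in that fit, where 6.71% of all genes were and 2.91% were higher, and none with TPM as deposited, where 13.5% of all genes were called lower. PSMC3IP overlaps exons of MLX on the opposite strand and was chosen after its values were seen. It was at 20.9 ± 0.974 and 25.05 ± 3.09 TPM (SD, n = 3 each), lower in every HA-TAZ library as deposited. With scaled TPM its log2 fold change was 0.04. The sources used here do not say whether reads were assigned by strand.

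MLXIP (ENSG00000175727, chromosome 12), the partner of MLX, was at 22.6, 25.3 and 22.5 TPM with HA-TAZ and 36.6, 29.1 and 27.3 TPM in the controls. All HA-TAZ libraries were below all controls as deposited, and the groups overlapped after scaling, with a log2 fold change of −0.09 and a 95% interval of −0.26 to 0.08 (limma, adjusted p = 0.425). On scaled TPM, 2 of the 10 genes were higher in all HA-TAZ libraries, MYC and MLX, and 0 were lower, where 20.2% of all genes were higher and 18.3% lower. On TPM as deposited, 0 were higher and 4 lower, MYC, MXD1, MXD3 and MLXIP, where 4.41% of all genes were higher and 43.6% lower.

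**Figure D2:**
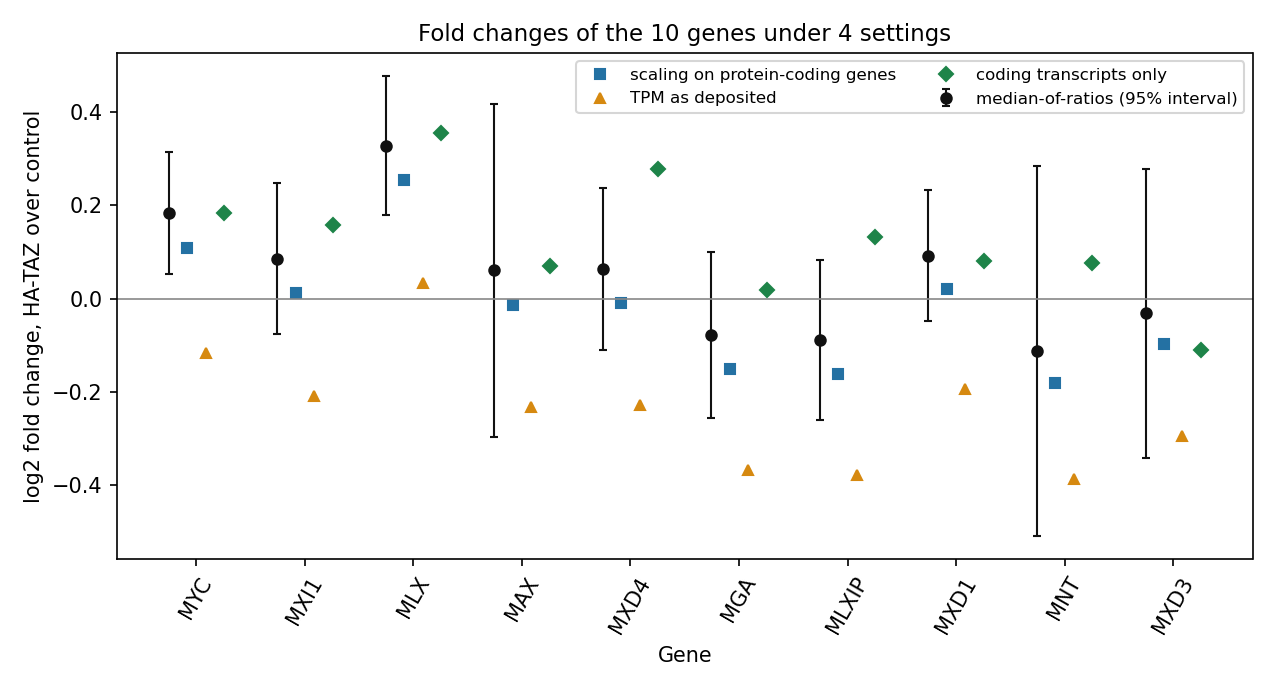
log2 fold change, HA-TAZ over control, of each gene under 4 settings, with the 95% interval drawn for the median-of-ratios scaling. With TPM as deposited 9 of the 10 genes lie below 0, and MLX lies above 0 under each of the 4 settings.

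By mean TPM over the 6 libraries, the genes were ordered as MYC at 307.1, MXI1 at 52.3, MLX at 39.2, MAX at 35.8, MXD4 at 31.1, MGA at 27.9, MLXIP at 27.2, MXD1 at 17.8, MNT at 10.3 and MXD3 at 7.03 TPM. The libraries of neighbours in this order overlapped for MLX and MAX, MAX and MXD4, MXD4 and MGA, MGA and MLXIP, and MNT and MXD3. Within each of the 6 libraries, though, MAX was above MXD4, MXD4 above MGA and MNT above MXD3, while MLX was above MAX in 5 libraries and MGA above MLXIP in 4. MYC and MXI1, MXI1 and MLX, MLXIP and MXD1, and MXD1 and MNT did not overlap. The 10 genes together summed to 523 ± 24.6 TPM with HA-TAZ and 589 ± 39.9 TPM in the controls (SD, n = 3 each), without overlap as deposited, as 43.6% of single genes were lower. Without MYC, the other 9 genes summed to 228 ± 15.2 and 269 ± 31.9 TPM (SD, n = 3 each), with overlap.

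Ratios between partners and competitors within a library do not depend on scaling, and 4 were compared with exact two-sided permutation tests, whose smallest p for 3 against 3 libraries is 0.1. MLXIP to MLX was 0.579, 0.614 and 0.577 in HA-TAZ and 0.943, 0.744 and 0.714 in control libraries. Every HA-TAZ library was lower, with means of 0.590 ± 0.0210 and 0.8004 ± 0.125 (SD, n = 3 each), and a log2 difference of −0.43 (exact permutation p = 0.1, adjusted over the 4 ratios 0.4). Counting only transcripts typed protein-coding, the ratio was 0.391 ± 0.0379 and 0.457 ± 0.0306 (SD, n = 3 each), a log2 difference of −0.23 with overlap. The shares of the summed TPM of the 10 genes come from the same MLX and MLXIP values and are not a separate result. MLX held 7.60 ± 0.161% and 6.60 ± 0.403% of this sum, and MLXIP 4.48 ± 0.124% and 5.25 ± 0.475% (SD, n = 3 each), both without overlap.

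MYC to MAX was 8.41, 9.11 and 9.76 in HA-TAZ and 6.59, 8.52 and 10.3 in control libraries, which enclosed the HA-TAZ values (exact permutation p = 0.7, adjusted 0.7). MYC to the sum of the 5 antagonists was 2.69, 2.62 and 2.86 against 2.29, 2.55 and 2.66, with overlap between HA-TAZ 2 and control c (exact permutation p = 0.2, adjusted 0.4). MGA to MAX was 0.626, 0.834 and 0.782 against 0.708, 0.840 and 0.926 (exact permutation p = 0.4, adjusted 0.533). None of the 4 ratios passed, and this design cannot reach a p under 0.05.

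**Figure D3:**
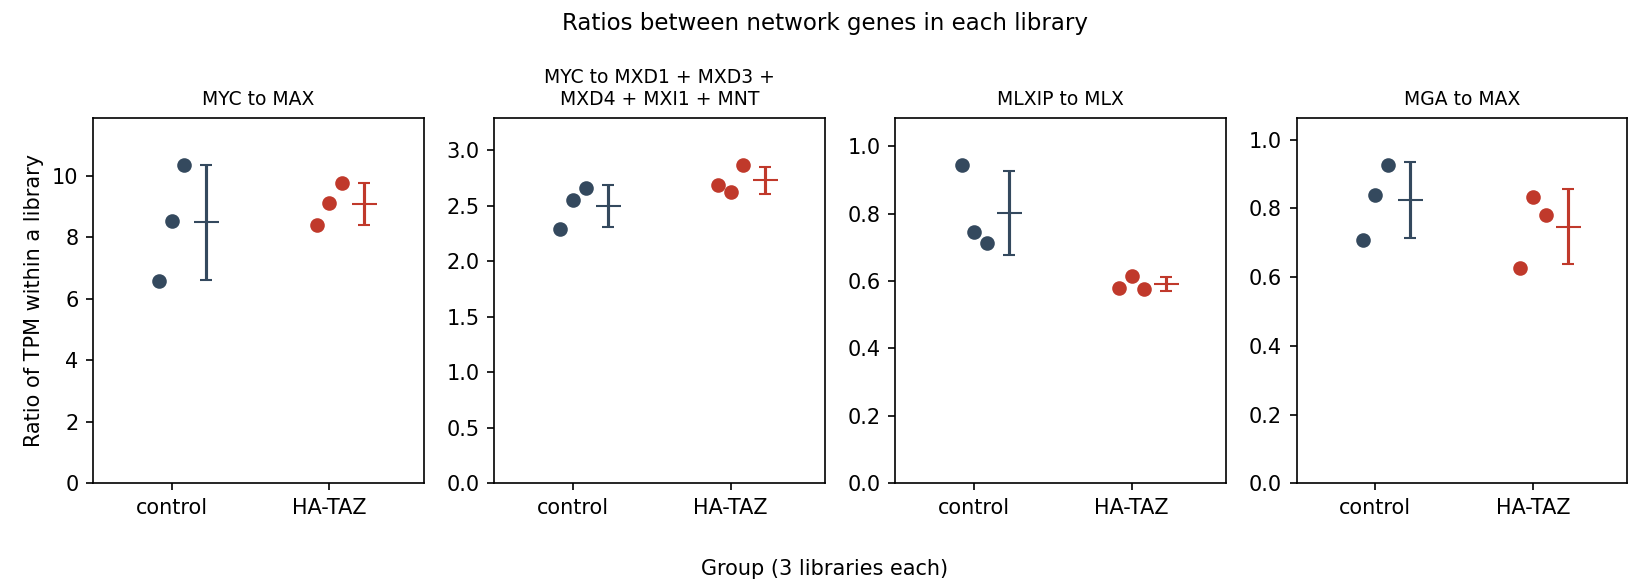
The 4 ratios of TPM in each library. Points are libraries, and the lines beside them are the mean and SD of each group (n = 3). MLXIP to MLX is lower in all 3 HA-TAZ libraries, and the other ratios overlap.

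Of the 96 transcripts, 3 were at 0 in every library and 57 had a mean of at least 1 TPM and were tested. None of the 57 was called by limma, where 0.534% of all transcripts tested were, and 9 had an unadjusted p under 0.05, where 24.1% of all transcripts did. The authors' deposited table gave statistics for 76 of the transcripts, and 3 of these had a q-value under 0.05, where 5.68% of all transcripts in it did. These were MYC ENST00000377970.2 with a natural log effect of 0.145 (q = 0.0142 in the authors' deposited table), MYC ENST00000259523.6 with 0.473 (q = 0.00924) and MLXIP ENST00000319080.7 with 0.194 (q = 0.0252). All 3 effects are positive for HA-TAZ in the authors' comparison, but only ENST00000259523.6 was higher in every HA-TAZ library as deposited. On that scale ENST00000377970.2 was lower in every HA-TAZ library, at 205 ± 7.43 against 222 ± 6.53 TPM (SD, n = 3 each). ENST00000319080.7 overlapped, at 5.92 ± 0.406 and 6.12 ± 0.270 TPM (SD, n = 3 each). All 9 MLX transcripts in the authors' deposited table had a q-value of 0.3004 or more.

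Grouped by transcript type, the directions were as follows. Of the 34 tested transcripts typed protein-coding, 27 had a positive log2 fold change, with a median of 0.22, beside 0.10 over all such transcripts. Of the 15 typed retained intron, 6 were positive, with a median of −0.07, beside −0.10 over all such transcripts. Of the 5 typed processed transcript, 1 was positive, with a median of −0.28, beside −0.10 over all such transcripts. The share of a gene's TPM in coding transcripts was higher in every HA-TAZ library for MXI1, MGA and MLXIP. These are 3 of the 9 genes that also have other transcripts, where 23.8% of the 10018 genes compared were higher and 3.83% lower. These shares were 94.3 ± 1.40% against 89.6 ± 2.04% for MXI1, 74.1 ± 1.31% against 69.1 ± 2.40% for MGA and 49.6 ± 5.01% against 42.1 ± 3.34% for MLXIP (SD, n = 3 each). Each had an exact permutation p of 0.1 and an adjusted value of 0.3 over 9 genes. All MYC transcripts are typed protein-coding. Counting coding transcripts only, MLX had a log2 fold change of 0.36 (limma, adjusted p = 0.0074) and MXD4 0.28, and those of MNT, MGA and MLXIP became positive, at 0.08, 0.02 and 0.13. In that fit 32.7% of all genes were called, 28.6% higher. Its median log2 fold change over all genes was 0.13 and 73.0% of genes were positive. The values of MNT and MGA lay below this median, and that of MLXIP was at it.

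Transcript shares within a gene are also free of scaling. Of the 57 shares, 4 were higher and 6 lower in all HA-TAZ libraries, where 11% and 13.9% of all transcript shares were, and the smallest adjusted value was 0.57 (exact permutation tests, Benjamini-Hochberg over the 57). MYC was nearly constant: its main transcript ENST00000377970.2 held 69.6 ± 1.25% and 69.6 ± 1.05% of MYC TPM, and ENST00000524013.1 held 23.97 ± 0.954% and 24.7 ± 0.9754% (SD, n = 3 each). The minor ENST00000259523.6 was at 7.63, 7.01 and 7.63 TPM with HA-TAZ and 4.92, 6.25 and 6.32 TPM in the controls, and was the only MYC transcript with all HA-TAZ libraries above all controls as deposited. It held 2.52 ± 0.197% and 1.83 ± 0.288% of MYC TPM (SD, n = 3 each), and its log2 fold change was 0.57 (limma, adjusted p = 0.110).

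MXI1 had the most shares without overlap, 3 of its 6 tested transcripts. ENST00000453116.1, with the ENST00000332674 start, held 16.6 ± 1.03% in HA-TAZ and 24.7 ± 3.70% in control libraries, and was lower in each HA-TAZ library. ENST00000361248.4 was at 5.16, 5.09 and 2.49 TPM with HA-TAZ and 1.30, 2.17 and 2.56 TPM in the controls. Its levels overlapped as deposited, with HA-TAZ 3 below control c, and its share was higher, at 8.68 ± 2.69% against 3.70 ± 1.55% (SD, n = 3 each). Grouped by coding start, transcripts with the ENST00000361248 start held 24.8, 23.2 and 15.4% of MXI1 TPM with HA-TAZ and 13.8, 14.4 and 14.1% in control libraries. The gap rests on HA-TAZ 1 and 2, with HA-TAZ 3 close to the controls. Transcripts with the ENST00000332674 start held 43.6 ± 1.31% and 48.9 ± 5.25%, and those with the ENST00000239007 start 29.6 ± 3.63% and 26.6 ± 5.14% (SD, n = 3 each), both with overlap.

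MAX transcripts with the 27-base insertion made up 56.7 ± 3.00% of the MAX TPM that could be sorted by it in HA-TAZ and 54.9 ± 7.17% in control libraries (SD, n = 3 each), with overlap. There were 7 such transcripts and 4 without it. Those with it include ENST00000394606.2 and ENST00000553928.1, which are typed nonsense-mediated decay and not protein-coding. In control c, ENST00000394606.2 alone was at 5.68 of the 10.6 TPM with the insertion. The longer coding sequence shown above is that of ENST00000358664.4, at a mean of 0.873 TPM, beside 9.27 TPM for ENST00000358402.4. The percentages are thus not the share of the long MAX protein form. The most abundant MAX transcript, ENST00000358402.4, lacks the insertion and held 28.5 ± 1.79% and 24.02 ± 4.29% of MAX TPM (SD, n = 3 each). MLX was carried by ENST00000435881.2, with a coding sequence of 735 bases, at 18.9, 18.2 and 18.5 TPM with HA-TAZ and 15.4, 20.0 and 22.2 TPM in the controls. The second MLX transcript, ENST00000346833.4, ran from 11.8 TPM in control a to 2.61 TPM in control c. These MLX values spread more between the controls than the summed gene did. In MLXIP, the coding ENST00000319080.7 held 25.2 ± 0.333% and 20.1 ± 3.65% of the gene (SD, n = 3 each), and the retained intron transcript ENST00000539861.1 was at 6.42, 8.34 and 4.31 against 14.4, 9.77 and 7.75 TPM. In MGA, the processed transcript ENST00000568630.1 held 5.22 ± 1.94% against 9.42 ± 1.40% (SD, n = 3 each), lower in all HA-TAZ libraries.

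The remaining shares without overlap belonged to MXD3, MAX, MLX and MXI1. The MXD3 transcript ENST00000513063.1 was listed at 1.39, 0 and 0.376 TPM with HA-TAZ and 1.94, 2.22 and 2.15 TPM in the controls, and ENST00000439742.2 held 22.5 ± 5.45% against 13.9 ± 4.11% of MXD3 (SD, n = 3 each). MXD3 had the lowest sum of implied estimated counts of the 10 genes. ENST00000556702.1 of MAX, ENST00000590050.1 of MLX and ENST00000484030.1 of MXI1, none of them typed protein-coding, held lower shares in all HA-TAZ libraries.

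**Figure D4:**
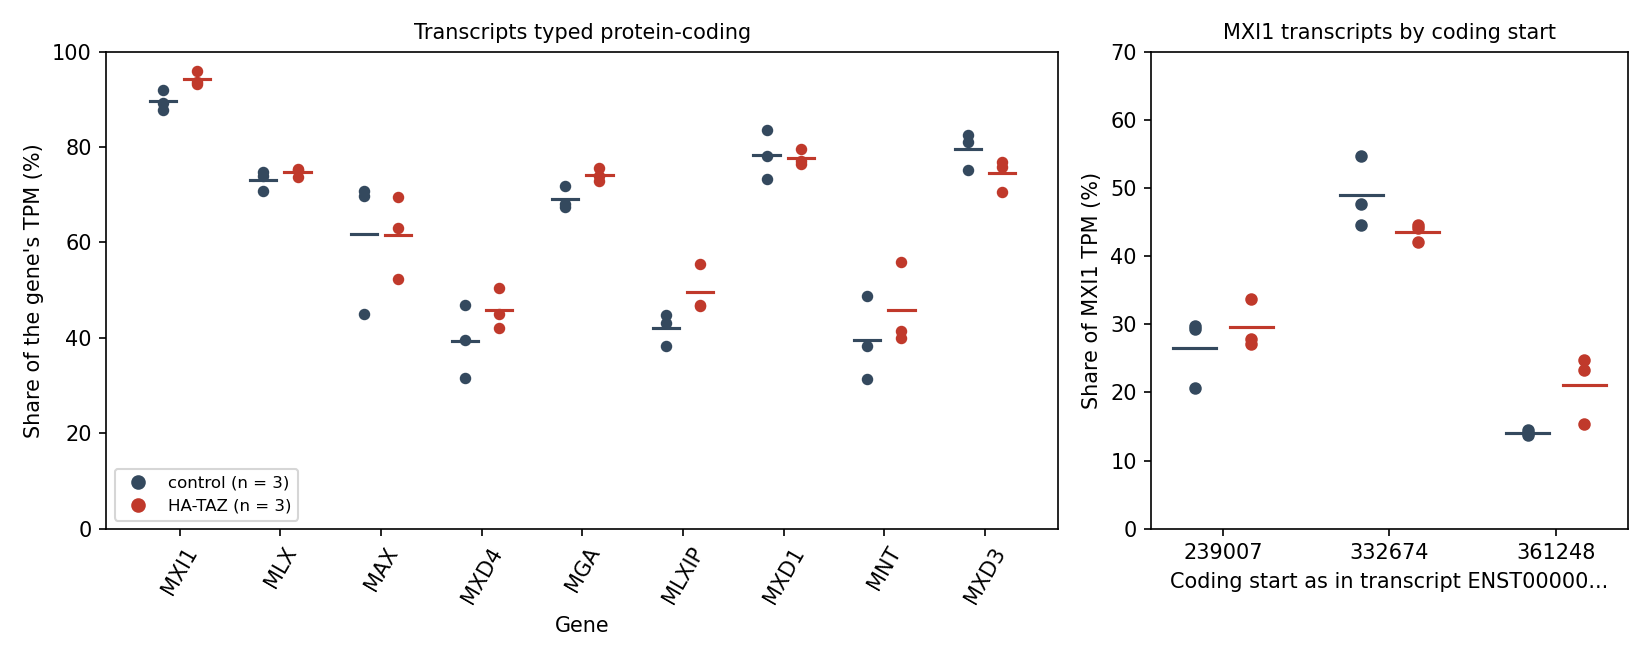
Left, percent of each gene's TPM in transcripts typed protein-coding, for the 9 genes with other transcripts. Right, percent of MXI1 TPM by coding start; points are libraries and lines are group means (n = 3). On the left the groups separate for MXI1, MGA and MLXIP, and on the right for the ENST00000361248 start.

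Exons of MAX, MXD3, MXI1, MNT, MGA and MLX overlap a gene on the opposite strand in GENCODE release 29, and those of MXD1, MXD3 and MXD4 a gene on the same strand. Their values are uncertain to the extent that reads were split between these genes.

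Other genes of the pathway were taken from lists that were chosen with earlier results of these data known. Their counts are descriptions, read beside the shares of all genes tested: 4.67% called higher, 2.63% called lower and 30.7% with an unadjusted p under 0.05, and 13.5% called lower with TPM as deposited. Outside the 10 genes, the network holds MYCN, MYCL and MLXIPL. MYCL, the MYC paralogue, was at 2.61, 2.66 and 2.77 TPM with HA-TAZ and 1.21, 1.25 and 1.03 TPM in the controls. Every HA-TAZ library was higher, with a log2 fold change of 0.95 and a standard error of 0.10 (limma, adjusted p = 0.0114), and 0.77 with TPM as deposited. Leaving out 1 library kept the MYCL call in 2 of 6 fits. MYCN, at a mean of 0 TPM with HA-TAZ and 0.00267 TPM in the controls, and MLXIPL, at 0.134 and 0.232 TPM, were under the filter.

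Of 16 cofactors that bind MYC, all were tested, 1 rose and 0 fell, and 9 had an unadjusted p under 0.05. On TPM as deposited 1 was called higher, PIM1, and 1 lower, ACTL6A. The gene that rose was PIM1, a kinase that phosphorylates histone H3 at MYC target genes, at 11.8 ± 1.12 TPM with HA-TAZ and 7.43 ± 0.0261 TPM in controls (SD, n = 3 each). Its log2 fold change was 0.87 (limma, adjusted p = 0.00702), and it was called in each of 13 alternative fits. Of 15 regulators of MYC protein turnover, 0 rose and 1 fell, SKP2, a ubiquitin ligase subunit for MYC. At an unadjusted p under 0.05 (limma) 6 were higher and 2 lower. SKP2 was at 15.1 ± 1.45 against 23.3 ± 1.39 TPM (SD, n = 3 each), and its log2 fold change was −0.32 (limma, adjusted p = 0.0416), called in 0 of 6 fits without 1 library. SKP2 and GSK3B were called lower with TPM as deposited. FBXW7, the ligase best known for MYC degradation, had −0.10 (limma, adjusted p = 0.301).

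Of 15 SIN3 and HDAC corepressor genes, which serve the MXD proteins, MXI1 and MNT, 2 rose and 0 fell. At an unadjusted p under 0.05 (limma) 5 were higher and 1 lower. ING1 had a log2 fold change of 0.41 (limma, adjusted p = 0.0336) and SAP30 0.42 (limma, adjusted p = 0.0342), both subunits of SIN3 complexes, and neither was called in any of the 6 fits without 1 library. Neither was called with TPM as deposited, where SIN3B, ARID4A and NCOR1 were called lower. Of 10 partners of MGA in its Polycomb complex, 0 were called by limma on either scale and 2 had an unadjusted p under 0.05, where 30.7% of all genes did. TXNIP, the best known target of MLXIP with MLX, was at 28.1 ± 2.23 and 32.3 ± 1.31 TPM (SD, n = 3 each), lower in every HA-TAZ library as deposited. Its log2 fold change was 0.10 with scaled TPM (limma, adjusted p = 0.255) and −0.19 with TPM as deposited. ARRDC4, the other such target, was listed at 0 in every library.

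Of 32 classical MYC targets with E-boxes, 31 were tested, 6 rose and 0 fell, where 4.67% of all genes rose and 2.63% fell. ENO1 and LDHA encode enzymes of glycolysis, SRM makes spermidine, CDC25A activates cyclin-dependent kinases, FBL methylates ribosomal RNA, and TRAP1 is a mitochondrial chaperone. Their log2 fold changes ran from 0.22 for TRAP1 to 0.50 for ENO1, with limma adjusted p-values from 0.0324 for SRM to 0.0469 for FBL. The median over the list was 0.16, beside −0.03 over all genes, and 17 genes had an unadjusted p under 0.05, all higher, where 30.7% of all genes had such a p in either direction. In a fit of only the 12613 genes with a mean of at least 5 TPM, the median was 0.04 and 1513 were called higher. The part of gene level and gene type in the counts of this list was not tested. With TPM as deposited the median was −0.14, beside −0.27 over all genes, and 0 were called higher and 1 lower, BOP1. With scaling on protein-coding genes 2 were called higher, and of the 6 only ENO1 was called in any fit without 1 library, in 1 of 6.

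Of 11 genes listed as repressed by MYC, some of them with ZBTB17, 5 were tested, 2 rose and 1 fell. At an unadjusted p under 0.05 (limma) 3 were higher and 2 lower. CDKN2B, a cell cycle inhibitor, had a log2 fold change of 0.81 (limma, adjusted p = 0.0149), and GADD45A, a stress response gene, 0.88 (limma, adjusted p = 0.0138). NDRG2, a gene linked to differentiation, had −0.67 (limma, adjusted p = 0.0134). These 3 were called with TPM as deposited too, with NDRG1 lower as well, and in the 6 fits without 1 library CDKN2B was called in 1 and GADD45A and NDRG2 in 2 each. CDKN1B was listed at 0 in every library. Of 12 regulators of the MYC gene in plasma cells, 11 were tested, and 0 were called by limma, with 2 at an unadjusted p under 0.05, where 30.7% of all genes were. On TPM as deposited the median of this list was −0.31, beside −0.27 over all genes, and 2 were called lower, IKZF1 and CREBBP, where 13.5% of all genes were. IRF4, a plasma cell factor that activates MYC in myeloma, was at 173 ± 16.9 and 234 ± 34.6 TPM (SD, n = 3 each), and its log2 fold change was −0.13 (limma, adjusted p = 0.334).

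Of 16 other factors that bind E-boxes, 15 were tested. At an unadjusted p under 0.05 (limma) 6 were higher and 5 lower, and 2 were called higher and 1 lower. The balance turned with the scale: 1 was called higher and 6 lower with TPM as deposited, and 2 higher and 4 lower with scaling on protein-coding genes. BHLHE40, a repressor of the circadian and hypoxia responses, was at 9.79 ± 1.02 TPM with HA-TAZ and 3.39 ± 0.178 TPM in controls (SD, n = 3 each), and its log2 fold change was 1.54 (limma, adjusted p = 0.00328). SREBF1, the regulator of lipid synthesis, was at 42.5 ± 3.37 against 81.9 ± 6.99 TPM (SD, n = 3 each), with −0.63 (limma, adjusted p = 0.00492). Both were called in each of 13 alternative fits. USF1 had 0.28 (limma, adjusted p = 0.0276), and −0.01 with TPM as deposited, and was called in 0 of 6 fits without 1 library.

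The genes whose scaled log2 levels followed MYC most closely over the 6 libraries were YRDC, ZFAS1, TAF4B, SETD1B and SUV39H1, with Pearson's r of 0.997 to 0.998. The points share the library and its scaling factor, and 934 of 9049 genes with a mean of at least 10 TPM, 10.3%, had r above 0.95. Among the network genes, MLX had r of 0.986 with MYC, MXD1 0.915, MXD4 0.403 and MXI1 0.331. MAX had −0.0183, MNT −0.406, MGA −0.713 and MLXIP −0.769, and MXD3 was under this mean. Of all genes compared, 1.29% had a higher r than MLX and 17.5% a higher r than MXD1. These values describe 6 libraries in 2 groups, and no test was made.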

How the data were processed

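RNA of 6 libraries was analysed, 3 of HA-TAZ and 3 taken as wild type by elimination. The authors deposited TPM per transcript; kallisto 0.46.0, sleuth 0.30.0 and build GRCh37 are named in the submitters' processing notes. The authors' deposited table of a sleuth Wald test gives p-values and q-values, effects and mean observations on a natural log scale, per the file headers and the values. TPM was summed per gene ID. Library factors were medians of ratios over 21512 genes above 0 in all libraries. The test was limma 3.58.1 in R 4.3.3 with an intensity trend, two-sided, on log2(scaled TPM + 1), for a mean of at least 1 TPM, with Benjamini-Hochberg adjustment over all 22651 genes or 57448 transcripts; its script was tested on simulated data. TPM carries no depth, so precision was judged from the spread between libraries. The log2 scale understates changes of genes near the pseudocount.

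GENCODE release 29 gave a type for 84.7% of transcript IDs, matched without version. Tables were handled in Python 3.11.15 with numpy 2.4.6 and pandas 2.3.3, and figures drawn with matplotlib 3.10.9. Alternatives changed the scaling, pseudocount, filter, trend, transcripts summed and libraries. The genes and lists were chosen with earlier results of these data known. Named were the 10 genes, transcripts among the 3 most abundant of a gene or with shares that separate (the latter chosen after seeing them), called genes of the lists, and the 5 genes most like MYC; IRF4, FBXW7, TXNIP and genes under the filter were added for their known roles, and genes called only with TPM as deposited were named after their values were seen.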

Additional observations from a re-analysis of the deposited data

How the results depend on the processing

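The number of genes called was 1652 with the settings of the report, 3329 with TPM as deposited, 691 with no filter, 758 without the intensity trend and 115 to 433 when 1 library was left out. The share of calls that were higher was 63.98%, but 7.84% with TPM as deposited and 43.4% with scaling on protein-coding genes. For transcripts the number called was 307, against 120 with TPM as deposited, 1655 when the mean had to reach 5 TPM, 108 with no filter, 156 without the trend and 12 to 91 when 1 library was left out. Of the 10 network genes 1 was called, MLX. With TPM as deposited, scaling on protein-coding genes, no filter, no trend, or any library left out, 0 were called. MLX kept a positive log2 fold change in all 13 alternatives, from 0.03 to 0.36, and was called in 3 of them.

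With TPM as deposited the log2 fold change turned to −0.12 for MYC, −0.23 for MAX, −0.19 for MXD1, −0.23 for MXD4 and −0.21 for MXI1. With scaling on protein-coding genes it was −0.0127 for MAX and −0.00923 for MXD4. With coding transcripts only it turned to 0.0773 for MNT, 0.0192 for MGA and 0.13 for MLXIP, where the median over all genes in that fit was 0.13. Leaving out 1 library gave −0.0677 to 0.19 for MAX, −0.11 to 0.0678 for MXD3 and −0.27 to 0.00473 for MNT. The log2 ratio of MYC to MAX ran from −0.0485, without control a, to 0.28. The number of transcript shares without overlap was 10, and 13 to 23 when 1 library was left out, where fewer values make separation easier. The cause of the other changes was not tested. No paired analysis was possible because the control columns carry a name in no label, so their numbers match no wild type sample. The 3 libraries in each group and unknown depth limit what small differences can be seen.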
